A study of Mus musculus with 16 samples.

Results

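Chemokine ligands are small secreted proteins that set the direction in which leukocytes and some other cells migrate. The deposited RNA table of mouse mammary gland holds 38 of them among 24187 rows. They were taken by name: 21 CC ligands (Ccl), 15 CXC ligands (Cxcl, with the platelet ligands Pf4 and Ppbp), Xcl1 and Cx3cl1. Of the 38, 27 had a mean of at least 1 FPKM (fragments per kilobase of gene, scaled to library size) over the libraries and were tested. The other 11 were below that level, and 3 of them were listed at 0 in every library.

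The study examined C57BL/6 mice, and the 7 RNA libraries came from whole mammary gland at day 13 of pregnancy. The 3 mutant libraries were from Socs2-Δs animals, a line generated by CRISPR/Cas9 editing at Socs2, a gene whose product restrains cytokine signalling through JAK kinases and STAT factors. The 4 wild-type libraries were from purchased C57BL/6 animals, so breeding source and genotype cannot be told apart. The other 9 samples of the series, ChIP-seq and DNase-seq, were not used here. No age, pooling of animals or batch is given in the labels, and 1 label field gives wild type for the 3 mutant RNA samples, against their titles and source names, which were followed. Whether replicates were separate animals is not stated, so p-values measure only the spread between these libraries.

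Chemokines act through receptors with 7 membrane-spanning segments that couple to G proteins, while atypical receptors bind them without that signal and remove or transport them. In the growing mammary gland, Ccl11 is known for bringing in eosinophils. Lymphoid ligands such as Ccl19 and Cxcl13 organise T cell zones and B cell follicles of lymph nodes, and the inguinal mammary fat pad of the mouse contains such a node. In whole tissue, fewer cells of a type and less RNA per cell cannot be told apart.

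Socs2 itself measured 17.1, 13.9 and 16.0 FPKM in the mutant libraries, against 25.6, 22.1, 24.8 and 16.1 FPKM in wild type. Wild-type replicate 4 lay within the mutant range, and the difference on log2(FPKM + 1) was -0.46 (limma adjusted p = 0.267; exact two-sided permutation p = 0.0857, where 0.0286 is the smallest the 35 splits allow). Depth, recovered from the steps between low values, was 21.8 to 22.5 M (mega) reads in mutant and 21.3 to 24.5 M in wild-type libraries. Wild-type replicates 3 and 4 differed from the remaining 5 libraries: their summed salivary gland markers reached 632.3 and 306.0 FPKM, against 46.1 to 51.4 FPKM in mutant libraries and 101.3 and 82.4 FPKM in wild-type replicates 1 and 2. Their summed liver markers reached 210.6 and 2029 FPKM, against 6.80 to 10.3 FPKM in mutant libraries and 10.3 and 8.76 FPKM in those 2 wild-type libraries. The nuclear RNA Neat1 was at 11.4 and 14.8 FPKM there and at 442.2 to 586.2 FPKM elsewhere. Comparisons with wild-type replicates 1 and 2 alone are given where they differ most from those with all 4.

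A second pair of libraries stood apart by lymphocyte transcripts, 1 from each genotype. Summed over 7 B cell markers, mutant replicate 2 held 176.1 FPKM, against 2.25 and 3.35 FPKM in mutant replicates 1 and 3, and wild-type replicate 4 held 240.3 FPKM, against 3.06, 3.30 and 4.74 FPKM in wild-type replicates 1 to 3. The sum of 7 T cell markers was 99.4 FPKM in mutant replicate 2 and 128.1 FPKM in wild-type replicate 4, and 8.47 to 20.5 FPKM elsewhere. No marker of either list was at 0 in any library. The lymphoid chemokines followed the same 2 libraries, as described next.

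Ccl19, the CCR7 ligand that gathers T cells and dendritic cells, measured 1.30, 51.7 and 2.25 FPKM in mutant replicates 1 to 3, against 3.43, 7.11, 2.48 and 59.2 FPKM in wild-type replicates 1 to 4. Cxcl13, the CXCR5 ligand of B cell follicles, measured 0.441, 22.0 and 1.08 FPKM in the mutant libraries, against 1.38, 0.358, 6.02 and 64.6 FPKM in wild type. Ccl22, a CCR4 ligand made largely by dendritic cells, measured 0.589, 12.4 and 0.281 FPKM in the mutant libraries, against 0.412, 1.01, 0.700 and 13.9 FPKM in wild type. For all 3 ligands, mutant replicate 2 and wild-type replicate 4 were the highest libraries and the genotypes overlapped. Per library, 44 to 1740 reads lay behind Ccl19, 10 to 1532 behind Cxcl13 and 11 to 521 behind Ccl22.

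Ccl5, a ligand of activated T cells and natural killer cells, measured 12.6, 97.3 and 10.5 FPKM in the mutant libraries, against 10.1, 27.7, 10.2 and 80.8 FPKM in wild type. It thus had the same 2 high libraries over a higher floor. In mutant replicate 2, Ccl19, Cxcl13 and Ccl22 stood 29.1, 29.1 and 28.4 times above the mean of the other mutant libraries, and Ccl5 8.43 times. In wild-type replicate 4 the same ratios to the mean of wild-type replicates 1 to 3 were 13.6, 25.0, 19.7 and 5.05. The B cell antigen receptor gene Cd79a was 77.4 times higher in mutant replicate 2 and 98.6 times in wild-type replicate 4 by the same measure.

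Their receptors showed the same pair of libraries. Ccr7, the receptor for Ccl19, measured 0.259, 16.7 and 0.398 FPKM in the mutant libraries, against 0.497, 0.906, 0.428 and 18.8 FPKM in wild type. Cxcr5, the receptor for Cxcl13, measured 0.163, 5.48 and 0.372 FPKM in mutant libraries, against 0.270, 0.255, 0.269 and 9.67 FPKM in wild type. Ccl19 and Ccl22 were at least 4 times higher in each of these 2 libraries than in any other library, a pattern held by 64 of the 13392 tested rows, or 0.478%. Cxcl13 missed that mark through wild-type replicate 3, and Ccl5 through wild-type replicate 2. This threshold was chosen after the values were seen and is a description of these 2 libraries.

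**Figure D1:**
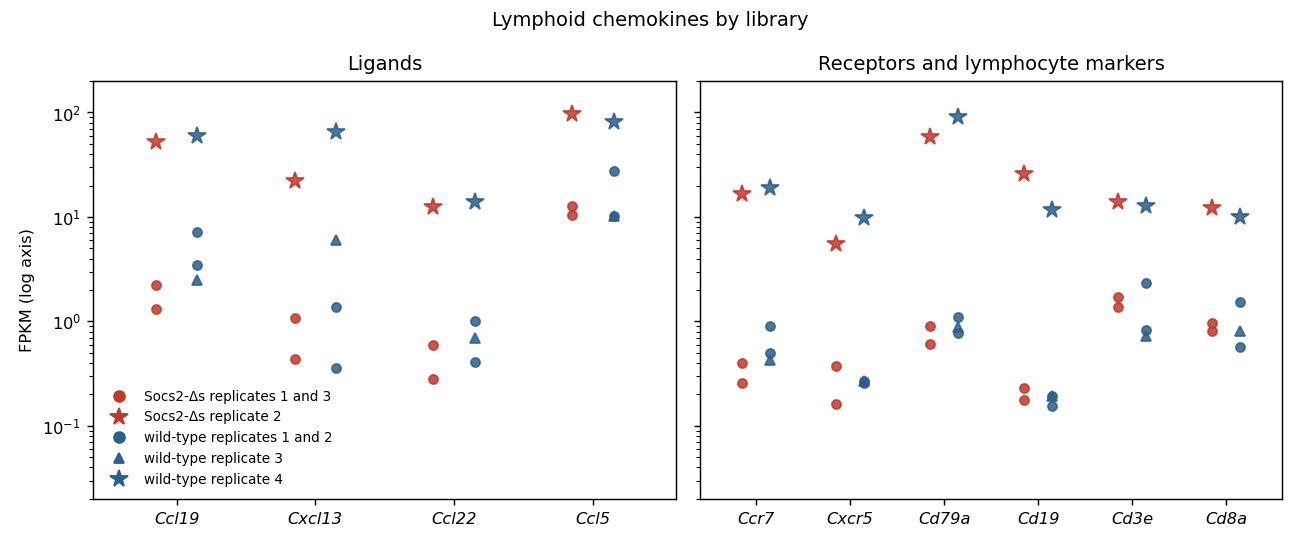
FPKM on a log axis of 4 ligands (left) and of 2 receptors and 4 lymphocyte markers (right), 1 symbol per library, Socs2-Δs in red left of wild type in blue. The stars, mutant replicate 2 and wild-type replicate 4, lie above the other 5 libraries for every gene drawn; Ccl19 reached 51.7 and 59.2 FPKM in them.

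No genotype difference of these ligands could be separated from that spread. The log2 difference was -0.35 (SE 1.30, limma adjusted p = 0.891) for Ccl19, -0.60 (SE 1.43, 0.823) for Cxcl13, 0.05 (SE 1.04, 0.984) for Ccl22 and 0.10 (SE 0.93, 0.957) for Ccl5. Without mutant replicate 2 and wild-type replicate 4, Ccl19 had a difference of -0.87 (limma adjusted p = 0.595), Cxcl13 of -0.71 (0.789) and Ccl5 of -0.29 (0.869), and Ccl22 was under the mean needed for a test. Against wild-type replicates 1 and 2, a comparison that keeps mutant replicate 2, Ccl19 (0.29), Cxcl13 (1.19), Ccl22 (0.84) and Ccl5 (0.48) were all higher in the mutant mean, with limma adjusted p from 0.633 to 0.938.

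The promoters of the 3 ligands that stood out most in those 2 libraries are shown because they were high together; each spans 250 bases before to 50 after the start, from RefSeq on GRCm38.p6. Capitals mark GGGA, any 4 bases and CC, or the reverse complement of this, a form of the kappaB site read by NF-kappaB factors, and each window holds 1.
Ccl19, chr4:42756316-42756615, minus strand: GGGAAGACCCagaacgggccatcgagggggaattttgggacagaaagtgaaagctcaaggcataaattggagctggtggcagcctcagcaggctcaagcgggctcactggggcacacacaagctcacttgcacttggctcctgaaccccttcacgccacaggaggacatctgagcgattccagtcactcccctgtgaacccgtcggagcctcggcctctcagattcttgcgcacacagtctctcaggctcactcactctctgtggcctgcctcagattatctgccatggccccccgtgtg
Cxcl13, chr5:95956689-95956988, plus strand: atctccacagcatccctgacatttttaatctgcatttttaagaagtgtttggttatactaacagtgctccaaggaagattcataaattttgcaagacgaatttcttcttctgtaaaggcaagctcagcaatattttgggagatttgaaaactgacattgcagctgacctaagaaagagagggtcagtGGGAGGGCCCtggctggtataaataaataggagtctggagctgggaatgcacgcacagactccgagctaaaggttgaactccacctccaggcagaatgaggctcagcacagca
Ccl22, chr8:94745434-94745733, plus strand: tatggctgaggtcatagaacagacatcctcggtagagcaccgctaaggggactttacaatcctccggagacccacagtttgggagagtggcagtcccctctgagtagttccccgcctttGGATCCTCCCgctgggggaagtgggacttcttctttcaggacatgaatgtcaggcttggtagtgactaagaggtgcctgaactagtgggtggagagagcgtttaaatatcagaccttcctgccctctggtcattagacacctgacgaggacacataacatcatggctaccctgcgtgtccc
The motif occurs in 20.7% of all 32851 promoter windows, so its presence is a description and no evidence of a site in use. Searched on both strands, TTCNNNGAA, a STAT binding form, occurs in 8.30% of all windows and in none of these 3. GAGGAA (28.3%) and TATAAA (13.6%) were also searched, and of these 3 windows only that of Cxcl13 holds TATAAA. Matching motifs may overlap one another.

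Ccl21a, the other CCR7 ligand of lymph node stroma, was listed at 0 in every library, mutant replicate 2 and wild-type replicate 4 included. Near-identical copies of Ccl21a lie on the same chromosome, reads shared by copies may not have been counted, and this 0 is uncertain. Ccl27b, a copy of Ccl27a, was likewise listed at 0, and so was Ccl26.

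Among the 27 tested ligands, 9 had every mutant library below every wild-type library (33.3%, against 10.0% of all 13392 tested rows in that direction): Ccl2, Ccl6, Ccl7, Ccl8, Ccl9, Ccl11, Cxcl12, Pf4 and Ppbp. None had every mutant library above (12.5% of all rows). Ppbp reached a mean of 1 FPKM only through wild type; of the 26 ligands with that mean in both genotypes, 8 (30.8%) lay below. Over all genes none of the 27 passed limma at an adjusted p of 0.05, where 0.0448% of rows passed as higher and 0% as lower. At an unadjusted p under 0.05, 10 ligands were lower and 0 higher, against 8.98% and 9.12% of all rows. The median log2 difference of the 27 was -0.35, and that of all tested rows -0.0044. Of the 27, 16 had a difference below 0, against 50.4% of all rows.

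Ccl2, the main CCR2 ligand of inflammatory monocytes, measured 1.27, 3.15 and 2.12 FPKM in the mutant libraries, against 4.77, 7.59, 9.20 and 5.66 FPKM in wild type (log2 difference -1.30, SE 0.27, limma adjusted p = 0.126). Ccl7, a second CCR2 ligand, measured 2.67, 3.50 and 3.30 FPKM in mutant libraries, against 7.51, 8.80, 19.5 and 12.6 FPKM in wild type. Its log2 difference was -1.58 (SE 0.30, limma adjusted p = 0.116), the smallest adjusted p of the 27. Both ligands were below wild type in all 3 mutant libraries, with 24 to 158 reads per library for Ccl2 and 50 to 332 for Ccl7.

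Ccl12, a CCR2 ligand of rodents, was the exception among these neighbours by a narrow margin. It measured 2.31, 4.33 and 3.19 FPKM in mutant libraries, against 7.32, 6.45, 7.36 and 4.30 FPKM in wild type, so mutant replicate 2 and wild-type replicate 4 overlapped (log2 difference -0.79, SE 0.23, limma adjusted p = 0.183). Ccl8, which in mice acts on CCR8, was the most abundant chemokine ligand of the table. It measured 33.6, 87.0 and 35.1 FPKM in mutant libraries, against 92.0, 107.3, 192.9 and 132.5 FPKM in wild type (log2 difference -1.41, SE 0.39, limma adjusted p = 0.171). Mutant replicate 2 came close to wild-type replicate 1, and the other mutant libraries lay far below.

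Ccl6 and Ccl9, CCR1 ligands of rodents made by macrophages and other myeloid cells, showed the same order. Ccl6 measured 16.2, 22.7 and 22.4 FPKM in mutant libraries, against 52.6, 43.6, 155.8 and 107.6 FPKM in wild type. Its log2 difference of -1.91 (SE 0.43, limma adjusted p = 0.142) was the largest of the 27 in size. Ccl9 measured 8.25, 9.81 and 10.8 FPKM in mutant libraries, against 15.0, 12.3, 37.4 and 36.4 FPKM in wild type (log2 difference -1.15, SE 0.40, limma adjusted p = 0.226). For both, wild-type replicates 3 and 4 were well above wild-type replicates 1 and 2, so the size of the difference depended on them.

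Pf4, platelet factor 4, is stored in platelets and is also transcribed by tissue macrophages. It measured 27.1, 31.0 and 24.7 FPKM in mutant libraries, against 49.0, 44.9, 111.3 and 120.4 FPKM in wild type (log2 difference -1.39, SE 0.38, limma adjusted p = 0.167). Ppbp, the other platelet ligand, measured 0.277, 0.199 and 0.429 FPKM in mutant libraries, against 0.508, 0.501, 9.39 and 2.45 FPKM in wild type. Wild-type replicates 1 and 2 lay just above the mutant libraries and replicates 3 and 4 far above them, on 5 to 216 reads per library. The platelet glycoprotein gene Gp9 measured 0.0526, 0 and 0.228 FPKM in mutant libraries, against 0.339, 0.0513, 1.68 and 0.967 FPKM in wild type, and the sum of 6 platelet markers was 2.94 to 4.17 FPKM in mutant and 3.60 to 6.05 FPKM in wild-type libraries.

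Ccl24, an eosinophil attractant that uses CCR3 and is made by alternatively activated macrophages, measured 2.88, 2.84 and 2.55 FPKM in mutant libraries, against 5.99, 2.62, 10.9 and 14.4 FPKM in wild type. Wild-type replicate 2 lay inside the mutant range (log2 difference -1.13, SE 0.45, limma adjusted p = 0.253), and against wild-type replicates 1 and 2 the difference was -0.42 (limma adjusted p = 0.456). Ccl11, eotaxin, the CCR3 ligand of connective tissue, measured 18.8, 18.7 and 17.2 FPKM in mutant libraries, against 40.6, 25.4, 37.7 and 38.2 FPKM in wild type. The log2 difference was -0.90 (SE 0.19, limma adjusted p = 0.131), and the mutant libraries were close to each other. Ccr3 itself measured 0.104 to 0.156 FPKM in mutant and 0.108 to 0.818 FPKM in wild-type libraries. Of the 4 eosinophil markers, Epx was at 0 in 6 of the 7 libraries, and the sum of the list was 3.53 to 5.63 FPKM in mutant and 5.74 to 21.6 FPKM in wild-type libraries.

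Cxcl12, the CXCR4 ligand of fibroblasts and vessels, measured 18.6, 19.7 and 15.2 FPKM in mutant libraries, against 28.0, 21.4, 23.3 and 37.6 FPKM in wild type (log2 difference -0.58, SE 0.22, limma adjusted p = 0.241). The 4 tested ligands listed as stromal, Ccl2, Ccl7, Ccl11 and Cxcl12, thus all had non-overlapping groups, against 10.0% of all rows, with a median log2 difference of -1.10 and of -0.96 against wild-type replicates 1 and 2. None of the 4 passed limma with 7 libraries. Of the 8 tested ligands listed under leukocytes, 3 had non-overlapping groups, and the median was -0.96, or -0.44 against wild-type replicates 1 and 2.

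**Figure D2:**
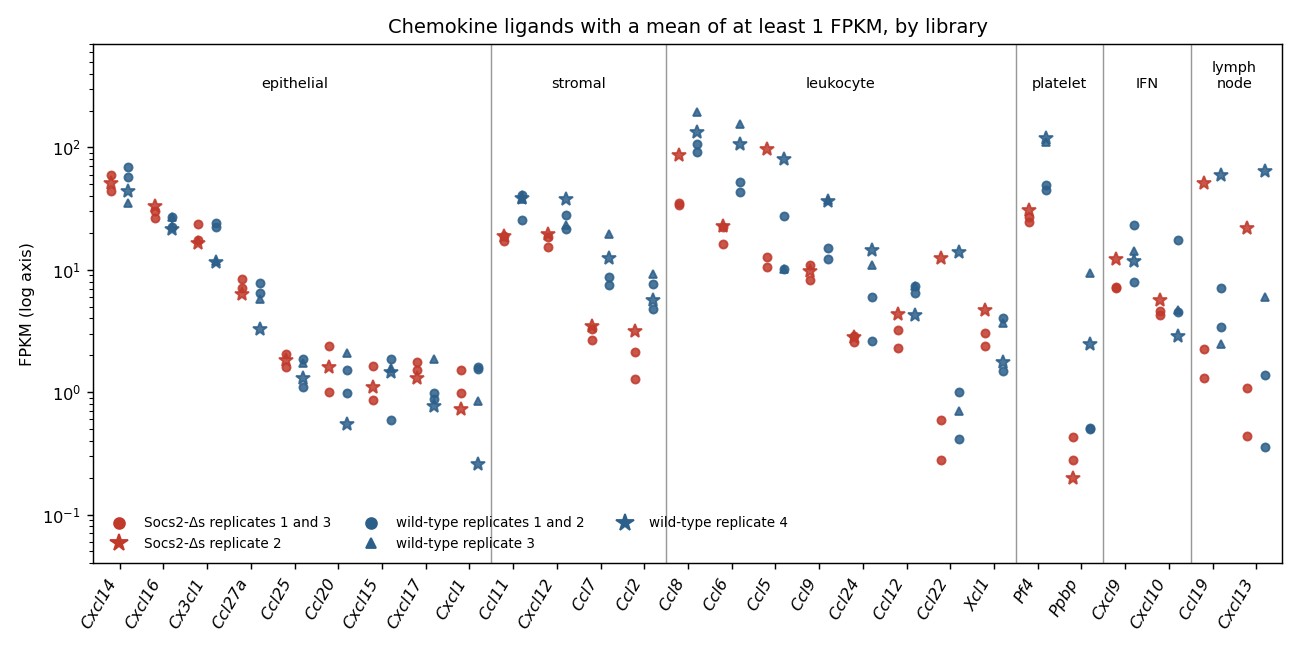
FPKM on a log axis of the 27 tested ligands, grouped by the source they are listed under (IFN, interferon-induced), 1 symbol per library, Socs2-Δs in red left of wild type in blue. The stromal ligands and Ccl6, Ccl8, Ccl9 and Pf4 have all red symbols below all blue ones; epithelial ligands overlap, as for Cxcl14 at 44.3 to 59.1 FPKM in mutant and 35.2 to 68.8 FPKM in wild-type libraries.

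Against wild-type replicates 1 and 2 alone, 2 of the 26 ligands then tested fell and 0 rose, where 0.716% of 13276 rows fell and 1.42% rose. They were Ccl7 (log2 difference -1.14, limma adjusted p = 0.0278) and Ccl6 (-1.20, limma adjusted p = 0.0396). The call rested on all 5 libraries: leaving out any of them in turn gave limma adjusted p of 0.0677 to 0.186 for Ccl7 and 0.0797 to 0.250 for Ccl6, at log2 differences of -1.24 to -1.04 and of -1.34 to -1.05. With all 7 libraries and a term for wild-type replicates 3 and 4, the same differences had limma adjusted p of 0.145 for Ccl7 and 0.152 for Ccl6. The other differences in this comparison were -1.19 for Ccl2, -1.07 for Ccl8, -0.91 for Ccl12, -0.78 for Ccl11, -0.75 for Pf4, -0.46 for Ccl9 and -0.44 for Cxcl12, with limma adjusted p from 0.0539 for Pf4 to 0.233 for Ccl8. In this comparison 10 of the 26 ligands had all 3 mutant libraries below both wild-type ones (18.2% of rows). Another 1, Cxcl17, had them above (22.0% of rows). The 10 were the ligands just named and Cxcl1. Cxcl1 separated narrowly, at 1.53 FPKM (34 reads) in mutant replicate 1 and 1.54 FPKM (35 reads) in wild-type replicate 2. For Ccl9 the -0.46 stands against -1.15 with all 4 wild-type libraries, and for Pf4 the -0.75 against -1.39.

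**Figure D3:**
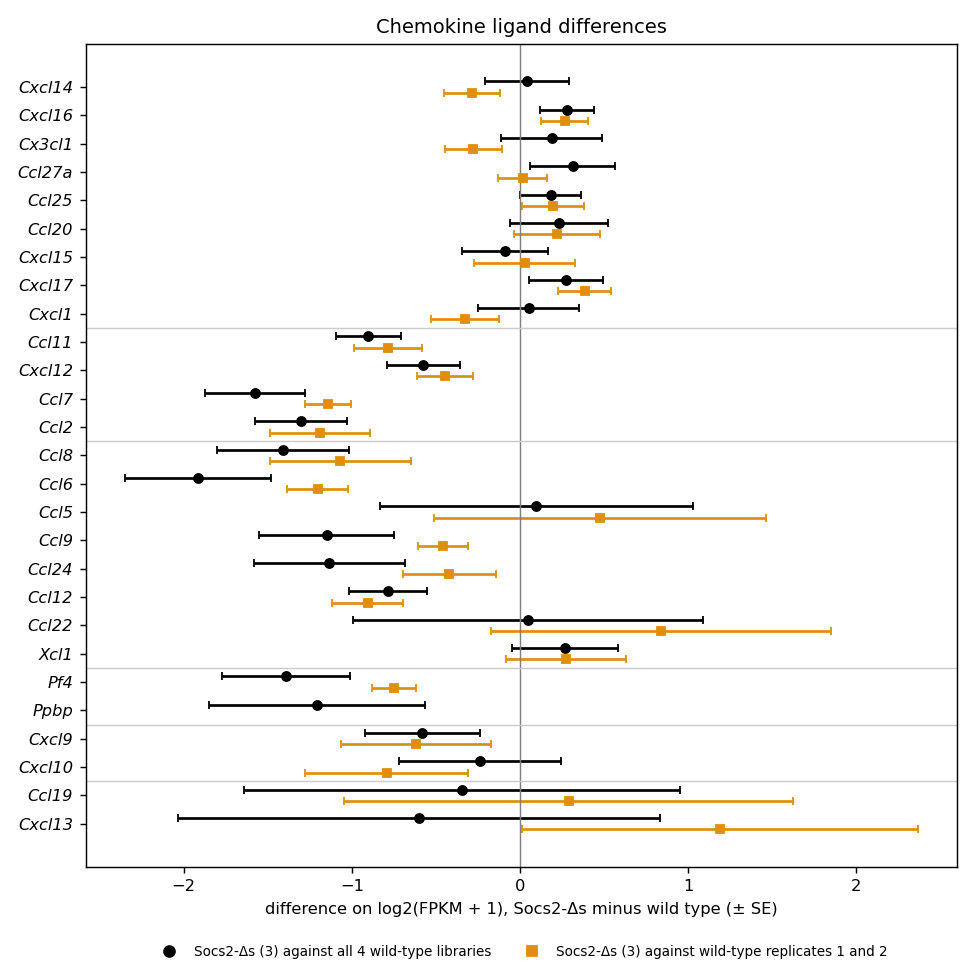
Differences on log2(FPKM + 1), Socs2-Δs minus wild type, with standard errors, for the 27 tested ligands in the order of the plot of levels. Black circles use all 7 libraries and orange squares use wild-type replicates 1 and 2 only; Ppbp has no square because its mean is then below 1 FPKM. Ccl6 lies farthest from 0 at -1.91 with 7 libraries and at -1.20 with 5.

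Markers of macrophages moved with these ligands. All 8 macrophage markers were lower in every mutant library than in every wild-type library, against 10.0% of all tested rows. With limma, 0 of the 8 passed, both with 7 libraries and against wild-type replicates 1 and 2. Their sum was 268.0 to 335.1 FPKM in mutant and 385.6 to 757.3 FPKM in wild-type libraries. The median log2 difference of the 8 was -0.82, or -0.45 against wild-type replicates 1 and 2, and none was at 0 in any library. Fibroblast markers summed to 1468 to 2082 FPKM in mutant and 2391 to 3068 FPKM in wild-type libraries. Adipocyte markers summed to 2702 to 4470 FPKM in mutant and 7895 to 18456 FPKM in wild-type libraries. By gene, 1 of the 8 fibroblast markers had a log2 difference above 0. Only 3 of these 8, and 4 of the 6 adipocyte markers, were lower without overlap. Milk protein transcripts of alveolar cells moved the other way, with sums of 49288 to 63821 FPKM in mutant and 3036 to 29561 FPKM in wild-type libraries. The part of these cell types in the ligand differences was not tested.

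Ratios within a library describe how each ligand stood relative to those markers; the values are log2(FPKM + 1) minus the mean of the same for the marker list. For Ccl6 the ratio to the 8 macrophage markers was -0.13, 0.07 and 0.40 in the mutant libraries, against 0.98, 0.70, 1.87 and 1.31 in wild type. For Ccl7 it was -2.35, -2.33 and -2.04 in mutant libraries, against -1.67, -1.48, -1.06 and -1.69 in wild type. For Pf4 it was 0.58, 0.50 and 0.54 in mutant libraries, against 0.88, 0.75, 1.39 and 1.47 in wild type. These 3 ligands, with the receptor gene Ccr2, were below wild type without overlap also in this ratio. The groups overlapped for the ratios of Ccl2, Ccl8, Ccl9, Ccl12 and Ccl24. Against wild-type replicates 1 and 2 alone, the ratios of Ccl2 and Ccl12 were also lower without overlap, and those of Ccl8, Ccl9 and Ccl24 overlapped. Of the stromal ligands, only Ccl7 kept non-overlapping groups in the ratio to 8 fibroblast markers. For Cxcl12 that ratio averaged -2.58 in mutant and -2.62 in wild-type libraries. The share of all rows without overlap in such ratios was not computed.

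**Figure D4:**
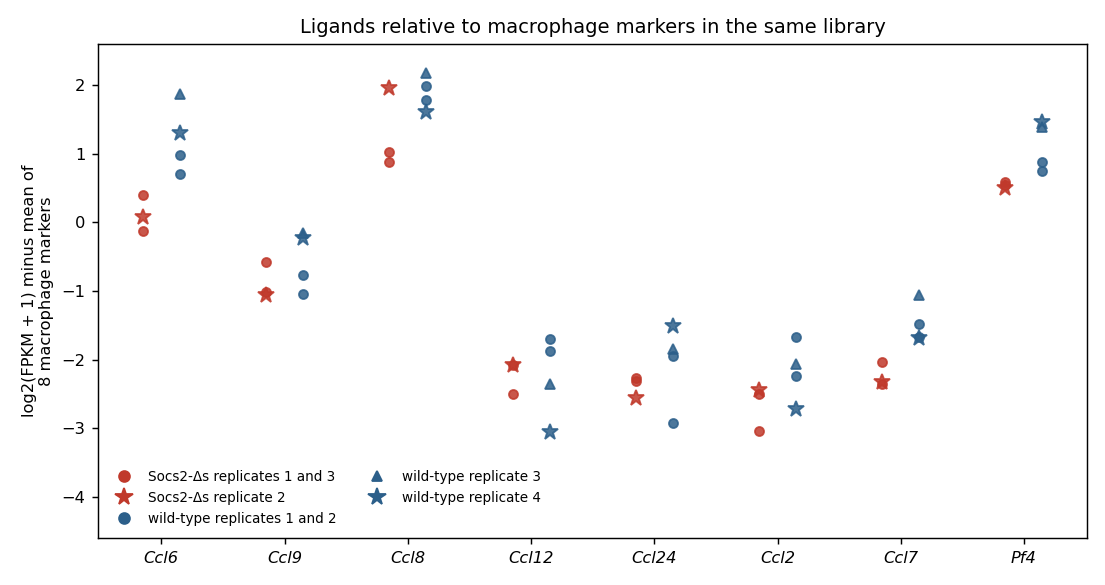
Ligand level relative to macrophage markers, as log2(FPKM + 1) minus the mean of 8 macrophage markers in the same library, 1 symbol per library, Socs2-Δs in red left of wild type in blue. Ccl6, Ccl7 and Pf4 have all mutant libraries below all wild-type ones, and the other 5 ligands overlap.

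Receptor genes were examined next. Ccr2, the receptor for Ccl2, Ccl7 and Ccl12, measured 6.75, 6.38 and 4.09 FPKM in mutant libraries, against 10.2, 11.2, 20.2 and 17.7 FPKM in wild type (log2 difference -1.20, limma adjusted p = 0.145). Ccr1, the receptor for Ccl6 and Ccl9, measured 1.67, 2.42 and 2.24 FPKM in mutant libraries, against 3.46, 4.28, 9.06 and 5.98 FPKM in wild type (-1.04, limma adjusted p = 0.167). Cxcr4, the receptor for Cxcl12, also had non-overlapping groups, with a log2 difference of -0.40 (limma adjusted p = 0.258), as 10.0% of all rows did in that direction. Against wild-type replicates 1 and 2 the differences were -0.82 for Ccr2, -0.65 for Ccr1 and -0.33 for Cxcr4, with limma adjusted p of 0.0994, 0.102 and 0.303. Of the 9 signalling receptors tested, 3 had a difference above 0, the median was -0.09, and none passed limma; Ccr3 was under the mean needed for a test and overlapped.

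All 5 atypical receptors, which bind ligands without that signal, were tested. Ackr1, which carries chemokines across venules, measured 3.58, 5.65 and 5.92 FPKM in mutant libraries, against 12.0, 10.3, 9.45 and 14.7 FPKM in wild type (log2 difference -1.07, limma adjusted p = 0.122). Ackr3, a scavenger of Cxcl12, measured 10.4, 10.3 and 11.0 FPKM in mutant libraries, against 18.9, 17.3, 44.2 and 30.8 FPKM in wild type (-1.22, limma adjusted p = 0.160). Against wild-type replicates 1 and 2, Ackr3 fell (log2 difference -0.72, limma adjusted p = 0.0353), as 0.716% of 13276 rows did. With all 7 libraries and a term for wild-type replicates 3 and 4, limma called 0 genes lower, Ackr3 included. How far the Ackr3 call rested on single libraries was not tested. Ackr2, the scavenger of inflammatory CC ligands, had a log2 difference of -0.68, Ackr4, which takes up Ccl19, of -0.07, and Ccrl2, which binds chemerin, of 0.03. Ackr1, Ackr2 and Ackr3 had non-overlapping groups, as 10.0% of all rows did in that direction, and Ackr4 and Ccrl2 overlapped. Against wild-type replicates 1 and 2 alone, all 5 were lower without overlap, against 18.2% of rows.

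Epithelial ligands overlapped between genotypes in all 9 tested members, and 8 of the 9 log2 differences were above 0, with a median of 0.19. With only wild-type replicates 1 and 2 that median was 0.028, and Cxcl14, Cx3cl1 and Cxcl1 were below 0. Cxcl14, a ligand of epithelia and fibroblasts with a debated receptor, measured 59.1, 51.3 and 44.3 FPKM in mutant libraries, against 68.8, 57.1, 35.2 and 44.1 FPKM in wild type. Its log2 difference was 0.04 (SE 0.25, limma adjusted p = 0.930), and -0.29 against wild-type replicates 1 and 2. Cxcl16, the membrane-bound CXCR6 ligand, measured 26.6, 33.1 and 30.1 FPKM in mutant libraries, against 22.5, 27.0, 27.1 and 21.7 FPKM in wild type (0.28, SE 0.16, limma adjusted p = 0.362). Cx3cl1, fractalkine, another membrane-bound ligand, measured 23.6, 16.6 and 17.5 FPKM in mutant libraries, against 24.2, 22.4, 11.9 and 11.6 FPKM in wild type (0.19, SE 0.30, limma adjusted p = 0.728). Wild-type replicates 3 and 4 had the lowest Cx3cl1 of the 7 libraries, and against the other 2 wild-type libraries the difference was -0.28. Its receptor gene Cx3cr1 measured 2.89 to 3.90 FPKM in mutant and 3.10 to 3.98 FPKM in wild-type libraries.

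Ccl27a, a skin-homing CCR10 ligand, measured 7.07, 6.39 and 8.42 FPKM in mutant libraries, against 6.52, 7.85, 5.79 and 3.31 FPKM in wild type, a log2 difference of 0.31 with all 4 wild-type libraries and of 0.016 with replicates 1 and 2. Ccl25, the CCR9 ligand of thymus and gut, measured 1.61 to 2.03 FPKM in mutant and 1.11 to 1.86 FPKM in wild-type libraries. The CCR6 ligand Ccl20 measured 1.01, 1.61 and 2.37 FPKM in mutant libraries, against 1.52, 0.986, 2.11 and 0.550 FPKM in wild type. The mucosal ligand Cxcl17 measured 1.52, 1.30 and 1.77 FPKM in mutant libraries, against 0.877, 0.986, 1.85 and 0.774 FPKM in wild type. All of these overlapped between genotypes, with limma adjusted p of 0.483 or more. Luminal epithelial markers summed to 1385 to 2122 FPKM in mutant and 783 to 1727 FPKM in wild-type libraries, and none of the 9 epithelial ligands had non-overlapping groups in the ratio to those markers. Against wild-type replicates 1 and 2 alone, that ratio was lower without overlap for 4 of the 9, Cxcl14, Cx3cl1, Ccl27a and Cxcl1. The share of all rows that separated in this ratio was not computed. In that comparison the luminal markers themselves had a median log2 difference of 0.38. The nearest mutant and wild-type ratios were -1.07 and -1.01 for Cxcl14, and -2.39 and -2.32 for Cx3cl1. They were -3.89 and -3.75 for Ccl27a, and -5.68 and -5.53 for Cxcl1, a gene of 5 to 39 reads per library.

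Cxcl1, Cxcl2, Cxcl3, Cxcl5 and Cxcl15, ligands that draw neutrophils, were scarce. Ppbp is given above with Pf4. Cxcl1 measured 1.53, 0.725 and 0.975 FPKM in mutant libraries, against 1.61, 1.54, 0.841 and 0.258 FPKM in wild type, from 5 to 39 reads per library. Cxcl15, a ligand known from lung epithelium, measured 0.870 to 1.65 FPKM in mutant and 0.587 to 1.88 FPKM in wild-type libraries. Cxcl2, Cxcl3 and Cxcl5 did not exceed 0.269 FPKM in any library, with at most 7 reads, and no difference between genotypes was detectable at this depth.

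Cxcl9 and Cxcl10, interferon-induced ligands of CXCR3 on T cells and natural killer cells, were highest in wild-type replicate 2. Cxcl9 measured 7.16, 12.2 and 7.17 FPKM in mutant libraries, against 7.91, 23.3, 14.4 and 11.8 FPKM in wild type (log2 difference -0.58, SE 0.34, limma adjusted p = 0.366). Cxcl10 measured 4.58, 5.67 and 4.29 FPKM in mutant libraries, against 4.49, 17.5, 4.65 and 2.85 FPKM in wild type (-0.24, SE 0.48, limma adjusted p = 0.790). Without wild-type replicate 2 the log2 difference of Cxcl10 was 0.24. The log2 difference was -0.79 for Cxcl10 and -0.62 for Cxcl9 against wild-type replicates 1 and 2. Cxcl11, the third of this class, measured 0.240, 0.241 and 0.289 FPKM in mutant libraries, against 0.171, 0.363, 0.439 and 0.0917 FPKM in wild type, with its highest value in wild-type replicate 3. Xcl1, a ligand of T cells and natural killer cells for dendritic cells that carry XCR1, measured 3.06, 4.71 and 2.40 FPKM in mutant libraries, against 1.48, 4.06, 3.65 and 1.76 FPKM in wild type (0.27, SE 0.31, limma adjusted p = 0.628). It was not raised in wild-type replicate 4, unlike Ccl5.

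The remaining ligands of leukocytes were low. Ccl3 measured 0.410 to 0.811 FPKM in mutant and 0.199 to 0.594 FPKM in wild-type libraries. Ccl4 measured 0.421 to 1.37 FPKM in mutant and 0.535 to 1.58 FPKM in wild-type libraries. Ccl17, the second CCR4 ligand, measured 0.249, 0.753 and 0.180 FPKM in mutant libraries, against 0.229, 0.486, 0.639 and 1.05 FPKM in wild type, from 2 to 11 reads. Its highest mutant library was replicate 2 and its highest wild-type library replicate 4, as for Ccl22. Ccl1 did not exceed 0.577 FPKM.

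The sum over the 38 ligands was 287.6, 526.2 and 274.7 FPKM in mutant libraries, against 462.6, 486.0, 747.7 and 834.5 FPKM in wild type, so mutant replicate 2 overlapped wild type. Epithelial ligands held 43.0, 21.7 and 39.5% of it in mutant libraries, against 27.9, 24.8, 11.8 and 10.2% in wild type. Stromal ligands held 14.4, 8.57 and 13.8% in mutant libraries, against 17.5, 13.0, 12.0 and 11.3% in wild type. Lymph node ligands held 0.607, 14.0 and 1.21% in mutant libraries, against 1.04, 1.54, 1.14 and 14.8% in wild type. Ligands of leukocytes held 28.3, 46.4 and 32.1% in mutant libraries, against 40.2, 42.9, 56.3 and 47.2% in wild type. These shares are sums over a few abundant genes, and each describes 1 library.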

How the data were processed

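RNA of whole mammary gland was measured in 7 libraries. TruSeq libraries were built from poly(A) RNA, per the labels' protocols. The submitters' processing notes list STAR, Bowtie2, CASAVA and DESeq2 with no role or version, and the mm9 build; for annotation, counter, strand use and filters the sources used here give nothing. The deposited values are FPKM made by the authors, and their sums differ between libraries.

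From these values, whole reads were recovered for 21044 of 21044 rows above 0 (tolerance 0.02 of a read). Genotypes were compared with limma 3.58.1 (R 4.3.3), with a mean-variance trend and no covariate, on log2(FPKM + 1), a scale that shrinks differences of low genes, for 13392 rows with a mean of at least 1 FPKM. P was adjusted over all of them by Benjamini and Hochberg at 0.05. The script was checked on simulated data. Columns were assigned by genotype and replicate number. Gene lists and source classes, each ligand in 1 class though several have more than 1 source, and the named-gene rule (each ligand of at least 1 FPKM by library, the rest by range) were chosen with earlier results of these data known. Promoter sequences were matched by gene ID for 27 of the 38 ligands. Alternatives covered pseudocount, filter, scaling, trend, replicate block and left-out libraries. The settings without mutant replicate 2 and wild-type replicate 4, the covariate marking wild-type replicates 3 and 4, and the left-out libraries for Ccl6 and Ccl7 were chosen after seeing the data. Not every receptor in the lists is reported here.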

Additional observations from a re-analysis of the deposited data

Results flagged for a closer look

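Among the 4 wild-type libraries, the lowest or highest value on log2(FPKM + 1) was examined for the 27 tested ligands and Socs2, and 2 of these 28 showed 1 library far from the rest, past the 0.05 level of Dixon's gap test. Chance flags about 1 in 20 such groups. Ccl11 in wild-type replicate 2 was low, at 25.4 FPKM, where the other 3 wild-type libraries lay close together. Ccl22 in wild-type replicate 4 was high, at 13.9 FPKM, in a library whose B cell markers summed to 240.3 FPKM.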

How the results depend on the processing

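With all 7 libraries, 6 of all tested genes were called higher and 0 lower. The count called higher was 1 with a pseudocount of 0.1, 1 with no filter on low values, 0 with libraries rescaled to equal sums and 25 with quantile normalization, which called 3 lower. It was 0 with the term for wild-type replicates 3 and 4, 0 without mutant replicate 2 and wild-type replicate 4 together, and 189, with 95 lower, without wild-type replicates 3 and 4 together. Leaving out 1 library at a time gave 0 to 31 called higher and 0 to 1 called lower. Ligands called lower numbered 2 without wild-type replicates 3 and 4, against 0. The median ligand difference of -0.35 was -0.088 with no filter, -0.66 without mutant replicate 2 and wild-type replicate 4, and -0.89 to -0.11 when 1 library was left out.

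Deviations of same-numbered libraries correlated at 0.347, 0.0554 and 0.191, and those of differently numbered libraries at -0.348 to 0.0483. Whether same-numbered libraries were paired was not tested. The fit with the replicate block on numbers 1 to 3, which leaves out wild-type replicate 4, called 0 genes higher and turned the sign of Ccl19 (0.55), Cxcl13 (0.53), Cxcl14 (-0.014) and Cxcl1 (-0.17).

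Signs turned for these other log2 differences. Without wild-type replicates 3 and 4, and with the term for them, they were 0.29 for Ccl19, 1.19 for Cxcl13, -0.29 for Cxcl14, -0.33 for Cxcl1, 0.028 for Cxcl15 and -0.28 for Cx3cl1. Without mutant replicate 2 and wild-type replicate 4 they were -0.015 for Cxcl14, -0.042 for Cxcl1, -0.063 for Xcl1 and -0.29 for Ccl5. A pseudocount of 0.1 gave -0.10 for Ccl22, and quantile normalization -0.038 for Cxcl1. With 1 library left out the ranges were -1.77 to 0.55 for Ccl19, -1.85 to 0.53 for Cxcl13, -0.12 to 0.20 for Cxcl14, -1.03 to 0.83 for Ccl22, -0.89 to 0.70 for Ccl5, -0.27 to 0.023 for Cxcl15, -0.52 to 0.24 for Cxcl10 and -0.17 to 0.18 for Cxcl1. The causes were not tested. Single-gene results kept their sign and side of the threshold in 410 gene and setting pairs, passed it in 2 and turned sign in 41. Low read counts limit Cxcl1, Ppbp, Cxcl17 and Ccl20.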

Other observations

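Neighbours in the CC ligand cluster of chromosome 11 differed widely in level. In the order of the RefSeq gene table, Ccl2, Ccl7, Ccl11, Ccl12, Ccl8 and Ccl1 averaged 4.82, 8.27, 28.1, 5.04, 97.2 and 0.210 FPKM over the 7 libraries. In the next group, Ccl5, Ccl9, Ccl6, Ccl3 and Ccl4 averaged 35.6, 18.6, 60.1, 0.503 and 0.877 FPKM. On chromosome 5, Pf4 averaged 58.3 FPKM between Ppbp at 1.97 FPKM and Cxcl3 at 0.0186 FPKM.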
